A study of Mus musculus with 12 samples.

Results

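The Gene Ontology (GO) terms shared by genes whose promoters carried more or less H3K4me3 in the hippocampus of Del/+ mice than in wt mice are described here, with the directions kept apart. All terms of both Del/+ tables were taken, 252 of the 1076 terms listed over the 8 gene lists of the study. Of these, 250 belonged to the genes higher in Del/+ and 2 to the genes lower in Del/+. H3K4me3 ChIP-seq was performed on whole hippocampi of C57BL/6N mice at postnatal day 30. The groups were 3 Del/+ mice, 3 wt controls of the same line, 3 Kansl1+/- mice and 3 wt controls of that line. Del/+ mice are heterozygous for a deletion from Arf2 to Kansl1, made with loxP sites in ES cells and recombined in vivo by a Cre driven by the Hprt promoter. It removes the mouse counterpart of the human region lost in Koolen-de Vries syndrome. Kansl1+/- mice carry a heterozygous tm1b allele of Kansl1 alone, derived from 1 ES cell clone. Each mutant was set by the authors against the same 6 wt libraries, which carry neither allele, and a promoter entered a list at a p-value below 0.01, for which no correction is stated.

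H3K4me3 is a histone mark deposited around the start sites of active genes, and its height at a promoter broadly follows how active that promoter is. Kansl1 encodes a subunit of a histone acetyltransferase complex that binds promoters of widely expressed genes. The hippocampus is needed for forming memories, and its neurons signal through synapses onto dendrites and cell bodies, with spikes that start at the base of the axon. Since the tissue was taken whole, a change of the mark per cell and a change in the share of cells that carry it cannot be told apart. Inside the deletion, the paper reports lower H3K4me3 peaks in Del/+ at Arf2, Crhr1, Mapt and Kansl1. Which of the genes lower in Del/+ lie inside the deletion is unknown here.

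The tables hold no value per mouse, no gene names and no coordinates, so the spread between mice and the depth of each library are unknown. The list of genes higher in Del/+ held 512 genes and the list of genes lower in Del/+ held 343, each out of 23468 background genes. A term was listed when its p-value was below 1e-05, and 250 of 21172 terms tested (1.18%) passed for the genes higher in Del/+, against 2 (0.00945%) for the genes lower in Del/+. Each term is described by its share, the percentage of its background genes that were in the list, which is 2.18% over all background genes for the higher list. The exact hypergeometric p recomputed from the counts put the terms in order. It was also set against the listing limit for smallest counts and bounds, and multiplied by the number of terms tested. No difference between mice was tested with it. Terms overlap and share genes, and how many background genes carry H3K4me3 in hippocampus was not analysed here, so the part of the background in these shares was not tested. Intervals are 95% intervals by the exact Clopper-Pearson method, and they describe the counting of genes, not the spread between mice.

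Of the 250 terms of the higher list, 161 were specific, with at most 1000 background genes, and 89 were broader. The recomputed hypergeometric p times the number of terms tested was below 0.05 for 133 of the 161. The first specific term in order was cell-cell signaling, with 88 of its 976 genes in the list where 21.3 would be its even share. Synaptic transmission, the passing of signals across synapses, followed with 69 of 618 genes against 13.5 by even share. These 2 terms were followed by the places where neurons receive and send signals. The somatodendritic compartment, the receiving side of a neuron, had 71 of 795 genes, and the synapse had 69 of 757. The axon, the output fibre, had 51 of 478 genes, the neuronal cell body 53 of 573 and the dendrite 50 of 523. Neuron development had 68 of 875 genes and neuron projection development 59 of 716. Regulation of ion transport, which covers control of channels and pumps, was also among the leading 10 terms, at place 8, with 56 of 643 genes. The leading 10 thus named signalling, the parts of a neuron, its growth and its ion currents, with shares from 7.77% for neuron development to 11.2% for synaptic transmission.

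**Figure D1:**
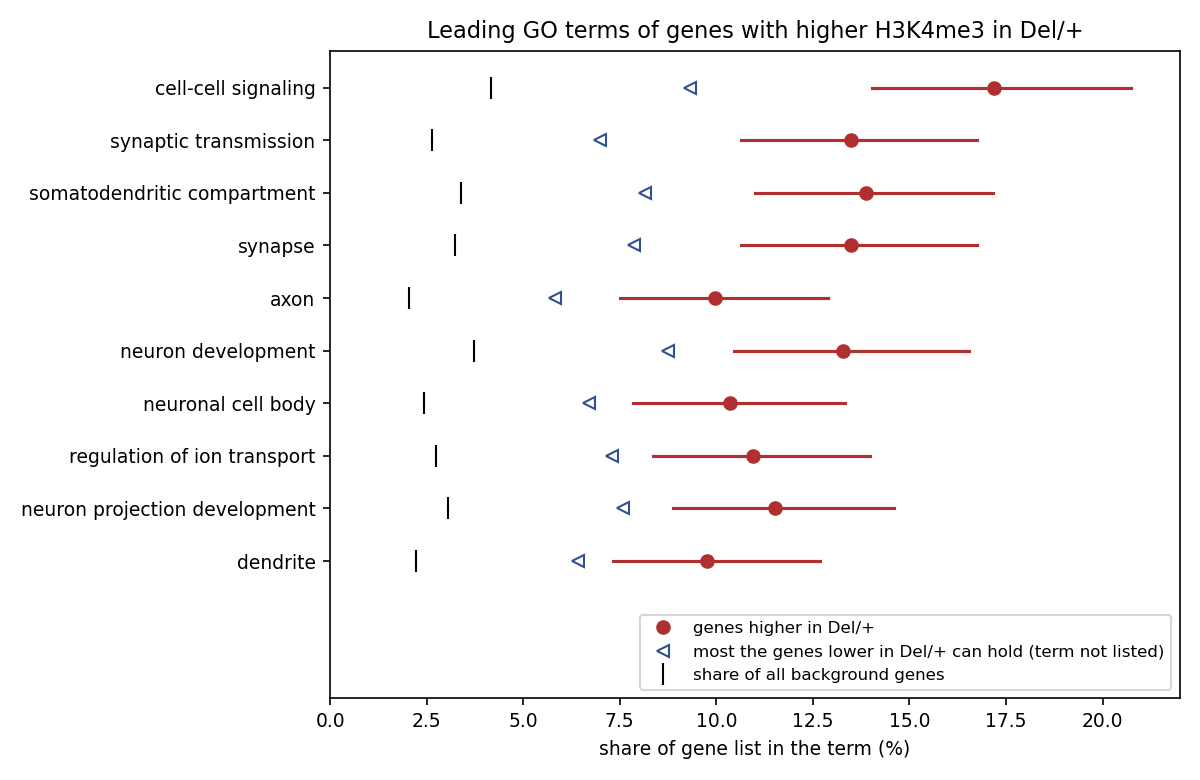
Percentage of each gene list (x axis) that belongs to the 10 leading specific GO terms (y axis): red points are the 512 genes higher in Del/+ with exact 95% intervals, triangles the most that the 343 genes lower in Del/+ can hold, and vertical bars the share of all background genes. For cell-cell signaling the red point is at 17.2% (14.0 to 20.7) and the triangle at 9.33%, and all 10 triangles lie left of the red intervals.

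Shares of the 161 specific terms ran from 4.56% to 50%, with a median of 8.65%, or from 2.09 to 22.9 times the even share. How high a share had to be for listing depended on the size of the term. The smallest count that is listed was 5 genes for a term of 10 (50%), 12 genes for a term of 100 (12%) and 44 genes for a term of 1000 (4.4%). All 24 terms of at most 100 genes therefore had shares of 12.1% or more, and the 63 terms above 500 genes had shares from 4.56% to 11.2%. Of the 161 terms, 28 stood exactly at the smallest count, so that 1 gene fewer would have left them out. The last 3 in order were regulation of cAMP metabolic process with 14 of 156 genes, negative regulation of ion transport with 13 of 136 and sensory perception of mechanical stimulus with 15 of 179. At the size limit, cell projection part (68 of 984 genes) and transmembrane transporter activity (52 of 980) were just inside. Anatomical structure formation involved in morphogenesis (45 of 1035) and cell morphogenesis (59 of 1036) were just outside. By group, the specific terms comprised 45 on ion channels and transport, 35 on neuron development and axon growth, 19 on synapses, 13 on receptor, cyclic nucleotide and calcium signalling, and 12 on the compartments of a neuron. A further 12 concerned behavior and sensation, 10 blood vessels and circulation, 7 cell migration, and 8 other processes.

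**Figure D2:**
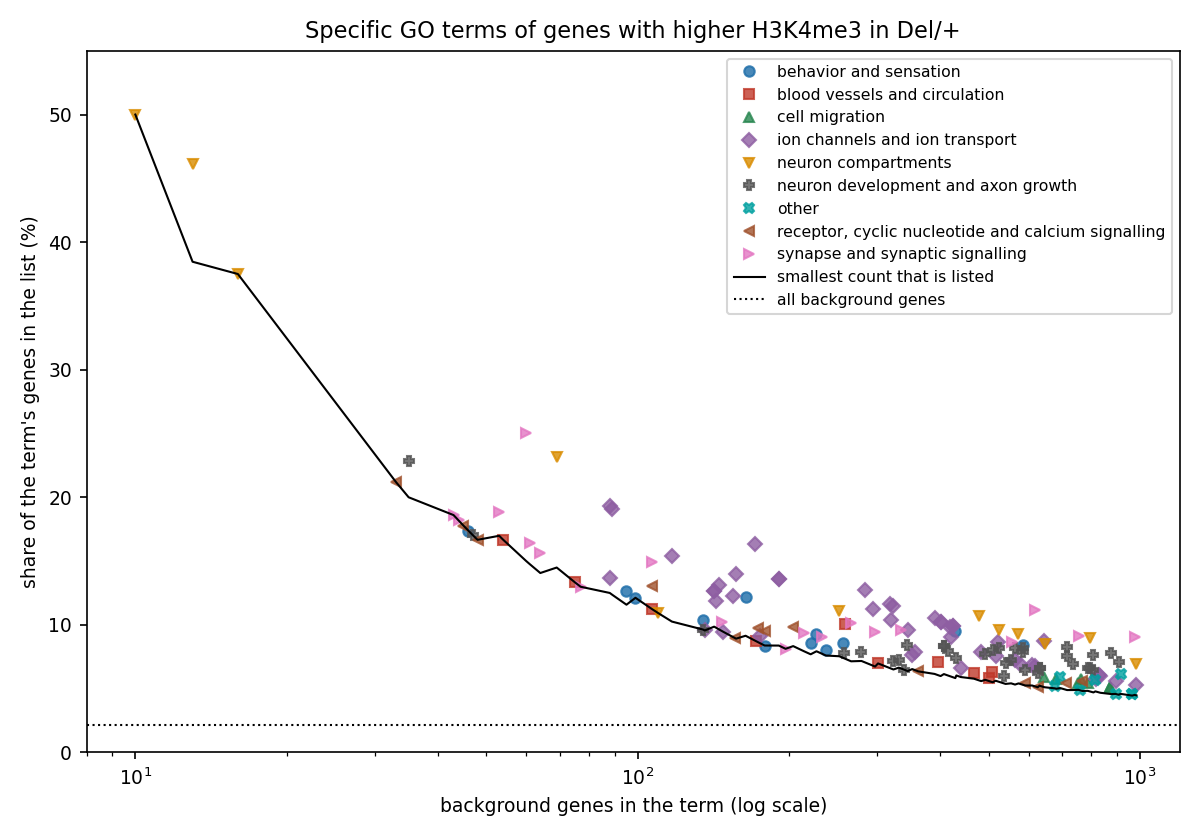
Share of each specific term's genes in the list of genes higher in Del/+ (y axis, percent) against the number of background genes in the term (x axis, log scale), with 1 symbol per term, coloured by group. The solid line is the smallest count that is listed and the dotted line the share of all background genes (2.18%), and small terms lie high because the line is high there, from 50% at 10 genes to 4.4% at 1000.

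Synaptic terms had a median share of 10.2% over 19 terms, with a range from 8.12% for the postsynaptic density to 25% for transmission of nerve impulse. The latter term, which covers the spread of spikes along fibres, had 15 of 60 genes, where 9 would have been enough for listing. Within cell-cell signaling, the genes of synaptic transmission had a share of 11.2% (8.79 to 13.9). The 358 genes of cell-cell signaling outside synaptic transmission had 19 in the list, or 5.31% (3.23 to 8.16), and the intervals did not overlap. Synaptic transmission made up 63.3% of the background genes of cell-cell signaling and 78.4% of its genes in the list. For glutamate, the main excitatory transmitter of the hippocampus, regulation of synaptic transmission, glutamatergic had 10 of 53 genes and synaptic transmission, glutamatergic 8 of 43, both near the smallest counts listed, 9 and 8. Glutamate receptor signaling pathway had 8 of 44 genes, the smallest count listed for its size. The presynaptic membrane, where transmitter is released, had 10 of 61 genes (16.4%, 8.15 to 28.1), and the remaining synaptic membrane genes had 17 of 205 (8.29%, 4.91 to 12.9). The postsynaptic membrane, where receptors sit, had 20 of 214 genes (9.35%), with 7 of 52 in the rest of the synaptic membrane (13.5%). The intervals overlapped on both sides of the synapse, and the differences were not tested. Synapse part, synaptic membrane and synapse assembly, the building of new synapses, had 48 of 555, 27 of 266 and 10 of 64 genes.

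Among the compartments of a neuron, nested terms were compared for the axon. The term axon part had 28 of 252 genes (11.1%), close to the 23 of 226 (10.2%) in the remainder of the axon. Within axon part, the main axon, the shaft of the fibre without its terminal, had 16 of 69 genes or 23.2% (13.9 to 34.9). The other 183 genes of axon part had 12 in the list, or 6.56% (3.43 to 11.2), below the interval of the main axon. The main axon needed 10 genes to be listed at all, so its share had to be above that of these other genes. Within the main axon, the axon initial segment, where spikes are triggered, had 6 of 13 genes (46.2%, 19.2 to 74.9). The node of Ranvier, a gap in the myelin where spikes are renewed, had 6 of 16 genes (37.5%, 15.2 to 64.6). That is the smallest count listed for its size, so its share could not have been lower. Both sites hold dense clusters of voltage-gated channels. The remaining main axon genes had 10 of 56 outside the initial segment (17.9%) and 10 of 53 outside the node (18.9%), with intervals that overlapped those of the named sites. The neurofilament, a cytoskeletal polymer of axons, had 5 of its 10 genes in the list, which is the smallest count listed for that size. Perikaryon, another name for the cell body proper, had 12 of 110 genes (10.9%), again the smallest count listed for its size. The median over the 12 compartment terms was 10.8%.

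Ion channel and transport terms were the most numerous group, with 45 of the 161 specific terms, 17 of the best 40 and a median share of 9.88%. The nested terms on channel complexes, assemblies of pore-forming and helper subunits, can be followed from the broadest to the narrowest, where listing itself asks a higher share of the narrower term. The transporter complex had 37 of 323 genes (11.5%), the ion channel complex 36 of 283 (12.7%) and the cation channel complex 28 of 171 (16.4%). The potassium channel complex had 17 of 89 (19.1%). In the potassium channel complex, all 17 genes belonged to the voltage-gated potassium channel complex (17 of 88, 19.3%), whose channels end a spike and set how often a neuron fires. The 112 ion channel complex genes that were not in cation channel complexes had 8 in the list (7.14%, 3.13 to 13.6), where the cation channel complex interval was 11.2 to 22.8. The 82 cation channel complex genes outside potassium channels had 11 (13.4%, 6.89 to 22.7). All these intervals overlapped, and the share of cation channel complexes other than those for potassium was also above the 2.18% of all background genes.

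By activity rather than complex, ion channel activity had 41 of 390 genes (10.5%) and cation channel activity 33 of 294 (11.2%). Potassium channel activity had 18 of 117 genes (15.4%, 9.38 to 23.2), and other cation channels had 15 of 177 (8.47%, 4.82 to 13.6). Channels opened by voltage had 26 of 191 genes (13.6%, 9.09 to 19.3), whereas the remaining gated channels, such as those opened by transmitters, had 7 of 128 (5.47%, 2.23 to 10.9). Voltage-gated potassium channel activity had 12 of 88 genes (13.6%), and 6 of the other 29 potassium channel genes were in the list (20.7%, 7.99 to 39.7). Potassium channels outside the voltage-gated term therefore had no lower share. Each pair of these intervals overlapped, which is no test of a difference, and the ordering among channel types is given as a description of the list. Regulation of membrane potential, which sums these currents, had 33 of 345 genes (9.57%), and channel regulator activity, by proteins that modify channels, had 17 of 143 (11.9%).

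Over 34 pairs of a narrower term inside a broader term, the narrower term had the higher share in 26 and the lower share in 8. Every narrower term was in a pair because it was listed, and listing asks a higher share of a smaller term. In 19 of the 34 pairs the narrower term could not have been listed with a share as low as that of the remaining genes, so the 26 and 8 are a description from which nothing is read. The intervals failed to overlap in 2 pairs, main axon in axon part and synaptic transmission in cell-cell signaling. Many pairs share genes, and the pairs were chosen with the published tables in view. The nesting was taken from knowledge of the ontology and not from the data. Counts of remaining genes assume that each narrower term lies wholly inside its broader term.

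**Figure D3:**
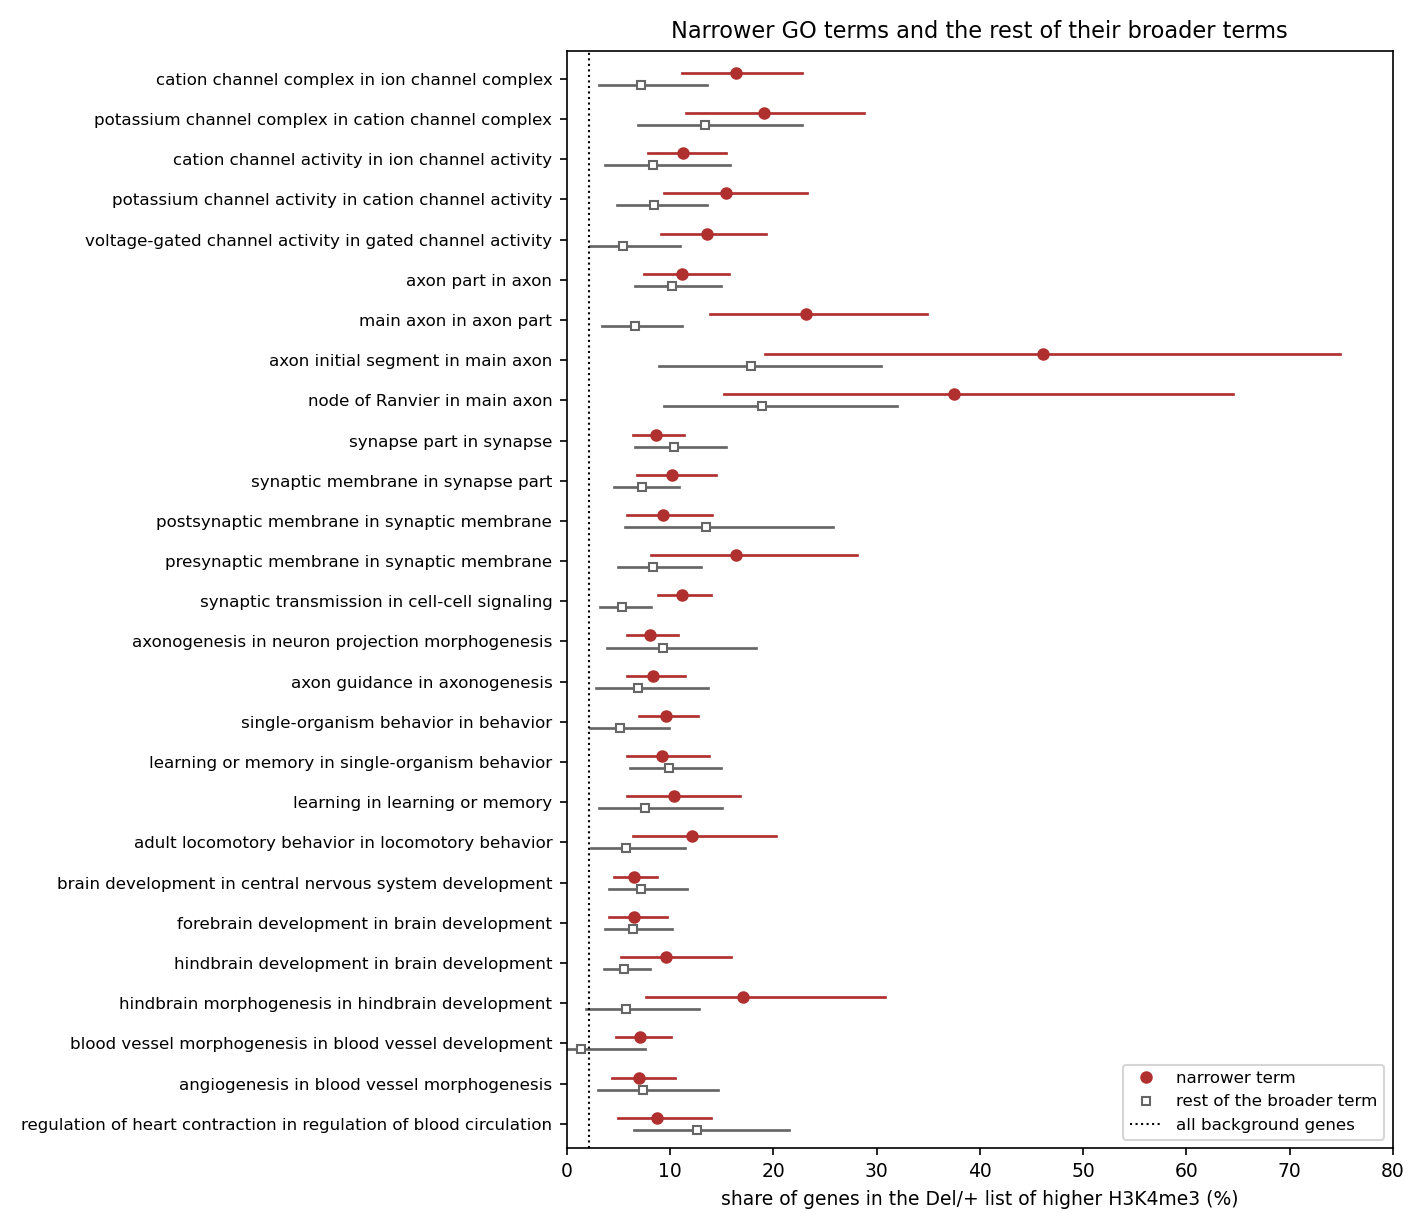
Share of genes in the list of genes higher in Del/+ (x axis, percent, exact 95% intervals) for 27 narrower GO terms (red points) and for the genes of their broader term outside them (open squares), among pairs with at least 50 such remaining genes. The red point lies right of the square in 20 of the 27 pairs, and main axon (23.2% against 6.56%) and synaptic transmission (11.2% against 5.31%) are the pairs whose intervals do not overlap.

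Neuron development and axon growth made up 35 specific terms with a median share of 7.67% and a median size of 540 genes. The synaptic terms had 10.2% and 197 genes, and since listing asks a higher share of a smaller term, the medians of the groups are not ranked. Regulation of nervous system development had 62 of 808 genes, and regulation of neurogenesis, the making of new neurons, 54 of 715 genes (7.55%). For outgrowth of fibres, neuron projection morphogenesis had 48 of 584 genes (8.22%), axonogenesis 41 of 509 (8.06%) and axon guidance, the steering of a growing axon by cues, 34 of 407 (8.35%). In axonogenesis, 34 of the 41 list genes were axon guidance genes, while the other 102 axonogenesis genes had 7 (6.86%, 2.80 to 13.6). The largest shares were those of neuron recognition, by which neurons find their partners, with 8 of 35 genes (22.9%, 10.4 to 40.1), and hindbrain morphogenesis with 8 of 47 (17.0%, 7.65 to 30.8). Hindbrain morphogenesis stood at the smallest count listed for its size. Of brain regions, brain development had 38 of 589 genes (6.45%). Forebrain development, which includes the hippocampus, had 22 of 339 (6.49%) and the rest of brain development 16 of 250 (6.40%). Hindbrain development had 13 of 135 genes (9.63%, 5.23 to 15.9), and the rest of brain development 25 of 454 (5.51%, 3.59 to 8.02). A term here names genes by their known roles, and a hindbrain term does not place the mark outside the hippocampus, which was the tissue sampled.

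Behavior and sensation terms had a median share of 9.40% over 12 terms. Behavior itself had 49 of 584 genes (8.39%) and single-organism behavior 41 of 429 (9.56%). Learning or memory, the function most tied to the hippocampus, had 21 of 227 genes (9.25%, 5.82 to 13.8), close to the 20 of 202 (9.90%, 6.15 to 14.9) of the remaining single-organism behavior genes. Learning alone had 14 of 135 (10.4%), and cognition 22 of 256 (8.59%). For movement, adult locomotory behavior had 12 of 99 genes (12.1%, 6.42 to 20.2), and other locomotory behavior genes 7 of 122 (5.74%, 2.34 to 11.5). Adult behavior had 20 of 164 genes (12.2%) where 15 would have been listed. The highest shares were those of social behavior (17.4%) and of sensory perception of pain, with 12 of 95 genes (12.6%). Social behavior stood at the smallest count listed for its size.

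Receptor, cyclic nucleotide and calcium signalling terms, 13 in number, had a median share of 9.5%, and 6 of them stood at the smallest count listed. G-protein coupled receptor signaling pathway, coupled to cyclic nucleotide second messenger, which relays signals of many transmitters through cAMP and cGMP, had 20 of 204 genes (9.80%). The neuropeptide signaling pathway, used by slow peptide transmitters, had 14 of 107 (13.1%, 7.34 to 21.0). Regulation of secretion had 43 of 768 genes. The cAMP metabolic process had 7 of 33 genes (21.2%) and its negative regulation 8 of 45 (17.8%). Calmodulin binding, by proteins that respond to the main calcium sensor of the cell, had 17 of 174 (9.77%).

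Terms on vessels, migration and other processes were also listed, and those described here were not among the best 40. Blood vessel and circulation terms numbered 10 with a median share of 7.90%. Regulation of blood circulation had 26 of 259 genes (10.04%), and 11 of its 87 genes outside regulation of heart contraction were in the list (12.6%), where heart contraction had 15 of 172 (8.72%). Regulation of system process had 32 of 507. Of the 29 list genes of vasculature development (500 genes), 28 belonged to blood vessel morphogenesis (396 genes, 7.07%), and 21 of those to angiogenesis, the sprouting of vessels (301 genes, 6.98%). Only 1 of 71 further blood vessel development genes was in the list (1.41%, 0.0357 to 7.60). Smooth muscle contraction had 9 of 54 genes (16.7%) and regulation of vasoconstriction 10 of 75 (13.3%), both at the smallest count listed. The 7 cell migration terms had shares within 5.16% and 5.91%, with cell migration at 43 of 787 and regulation of cell migration at 38 of 643. Regulation of cellular component movement had 44 of 763. The 8 other terms, among them positive regulation of cell differentiation (56 of 915), cytoskeletal protein binding (46 of 815) and negative regulation of cell proliferation (41 of 694), had a median share of 5.02% and a median size of 854.5 genes. The tables do not name the genes, so how many of them also belong to neuronal terms was not tested.

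In the opposite direction, 0 of the 250 terms were listed for genes lower in Del/+. The counts of unlisted terms are not in the tables, but the listing limit bounds them, on the assumption that every tested term below the limit was printed. At most 24 of the 343 lower genes (7.0%) can belong to synaptic transmission, where 13.5% (10.6 to 16.7) of the 512 higher genes did. The bound was 27 genes (7.87%) for the synapse, against 13.5% of the higher genes, and 20 genes (5.83%) for the axon, against 9.96% (7.51 to 12.9). For the cation channel complex it was 11 genes (3.21%), against 5.47% (3.66 to 7.81). Such a bound lay under the whole interval of the higher list for 31 of the 161 specific terms. Of these, 13 were on ion channels and transport, 6 on neuron compartments, 6 on neuron development, 4 on synapses and 2 on behavior. For the other 130, among them all blood vessel, cell migration and receptor signalling terms, the tables cannot tell whether the lower list held a smaller share. The terms of the higher list were listed for their high counts, so these comparisons are descriptions.

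Both terms of the genes lower in Del/+ were metabolic and broad, and 0 were specific. Listing is not correction for the number of terms tested. The ranking p multiplied by 21172 was 0.187 and 0.194 for these terms, so 0 of them were below 0.05. Among the 250 higher terms, this product was below 0.05 for 215, of which 133 were specific. It was not below 0.05 for the terms last in order, among them social behavior, hindbrain morphogenesis, hindbrain development and forebrain development. The same held for cAMP metabolic process, angiogenesis, perikaryon and postsynaptic density. It also held for synaptic transmission, glutamatergic, and for glutamate receptor signaling pathway. Every term was listed for its low p, so these counts are descriptions and no comparison of the directions. Small molecule metabolic process, which takes in the making and breakdown of sugars, amino acids, lipids and nucleotides, had 58 of its 2214 genes in the list. That was 2.62% of the term (2.0 to 3.37), or 1.79 times the 1.46% of all background genes, and 16.9% of the list (13.1 to 21.3). Organic acid metabolic process, which covers fatty acids, amino acids and the acids of the central energy pathways, had 34 of 1031 genes, or 3.30% (2.29 to 4.58) and 2.26 times that level. With 1031 genes it lay just outside the limit for specific terms. Organic acid genes made up 46.6% of the small molecule genes and 58.6% of those in the list. Small molecule genes that were not in the organic acid term had 24 of 1183 in the list (2.03%, 1.3 to 3.0), an interval that overlapped that of the organic acid genes and took in the level of all background genes. Both terms stood at the smallest count listed, 58 and 34. Neither was listed among genes higher in Del/+, where up to 78 genes (15.2% of the list) and 44 genes (8.59%) would have gone unlisted. These bounds lie inside the intervals of the lower list, so a difference between directions for these terms was not detectable from the tables.

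The Kansl1+/- lists, made against the same 6 wt libraries, held 343 higher and 483 lower genes, with 302 terms (1.43%) and 14 terms (0.0661%) listed. As the controls were shared, values are set side by side and no overlap is drawn from them. Neuron development took 13.3% (10.5 to 16.5) of the genes higher in Del/+ and 13.4% (9.99 to 17.5) of those higher in Kansl1+/-. Neuron projection development took 11.5% and 12.2%, axon guidance 6.64% and 7.58%, and cell migration 8.40% and 10.2%. Regulation of blood circulation took 5.08% and 4.96%. For these growth, migration and circulation terms the intervals overlapped widely. Synaptic transmission took 13.5% (10.6 to 16.7) in Del/+ and 8.16% (5.49 to 11.6) in Kansl1+/-. Cell-cell signaling took 17.2% (14.0 to 20.7) and 12.0% (8.72 to 15.9), again with overlapping intervals. Of the structural terms, cell body was listed in both, with 10.7% (8.2 to 13.8) in Del/+ and 7.58% (5.01 to 10.9) in Kansl1+/-. The broader neuron projection was also listed in both, with 18.6% (15.3 to 22.2) and 11.1% (7.96 to 14.9), as was neuron part, with 21.1% (17.6 to 24.9) and 12.2% (8.97 to 16.2). The somatodendritic compartment, synapse, axon and dendrite were not listed in Kansl1+/-. There they could hold at most 28 genes (8.16%), 27 (7.87%), 20 (5.83%) and 22 (6.41%). In Del/+ these terms took 13.9% (10.99 to 17.2), 13.5% (10.6 to 16.7), 9.96% (7.51 to 12.9) and 9.77% (7.34 to 12.7). Regulation of ion transport was listed in both, with 10.9% (8.37 to 14.0) in Del/+ and 8.75% (5.98 to 12.3) in Kansl1+/-. Regulation of ion transmembrane transport likewise took 8.01% (5.81 to 10.7) and 5.54% (3.37 to 8.52). Ion channel activity, which was not listed in Kansl1+/-, was bounded by 18 genes (5.25%) in Kansl1+/- and took 8.01% (5.81 to 10.7) in Del/+, and behavior was bounded by 23 genes (6.71%) where it took 9.57% (7.16 to 12.5) in Del/+. Regulation of behavior was listed in both, with 3.71% (2.25 to 5.73) in Del/+ and 5.54% (3.37 to 8.52) in Kansl1+/-. Some broad or non-neuronal terms had a larger share in the Kansl1+/- list. Tissue development, a broad term, took 13.3% (10.5 to 16.53) in Del/+ and 20.7% (16.54 to 25.4) in Kansl1+/-. With overlapping intervals, organ development took 21.3% (17.8 to 25.1) and 28.6% (23.8 to 33.7). Overlap was also found for response to endogenous stimulus, with 11.1% (8.54 to 14.2) and 17.5% (13.6 to 21.9), and for negative regulation of cell proliferation 8.01% (5.81 to 10.7) and 11.4% (8.21 to 15.2). Of the 109 specific terms not listed in Kansl1+/-, the bound lay under the Del/+ interval for 20, the unlisted terms named above among them, and not for 89. Axon part was among the latter, with a bound of 4.08% and an interval of 3.66 to 7.81, as were synaptic membrane (4.08%, 3.5 to 7.58) and social behavior (1.75%, 0.677 to 3.06). The intervals carry counting error only, and the difference between mutants was not tested over mice. Among lower genes, small molecule metabolic process took 16.9% of the Del/+ list and 15.7% (12.6 to 19.3, 76 genes) of the Kansl1+/- list. Organic acid metabolic process, not listed in Kansl1+/-, could hold up to 43 genes there (8.90%), which is inside the Del/+ interval of 6.96 to 13.6.

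**Figure D4:**
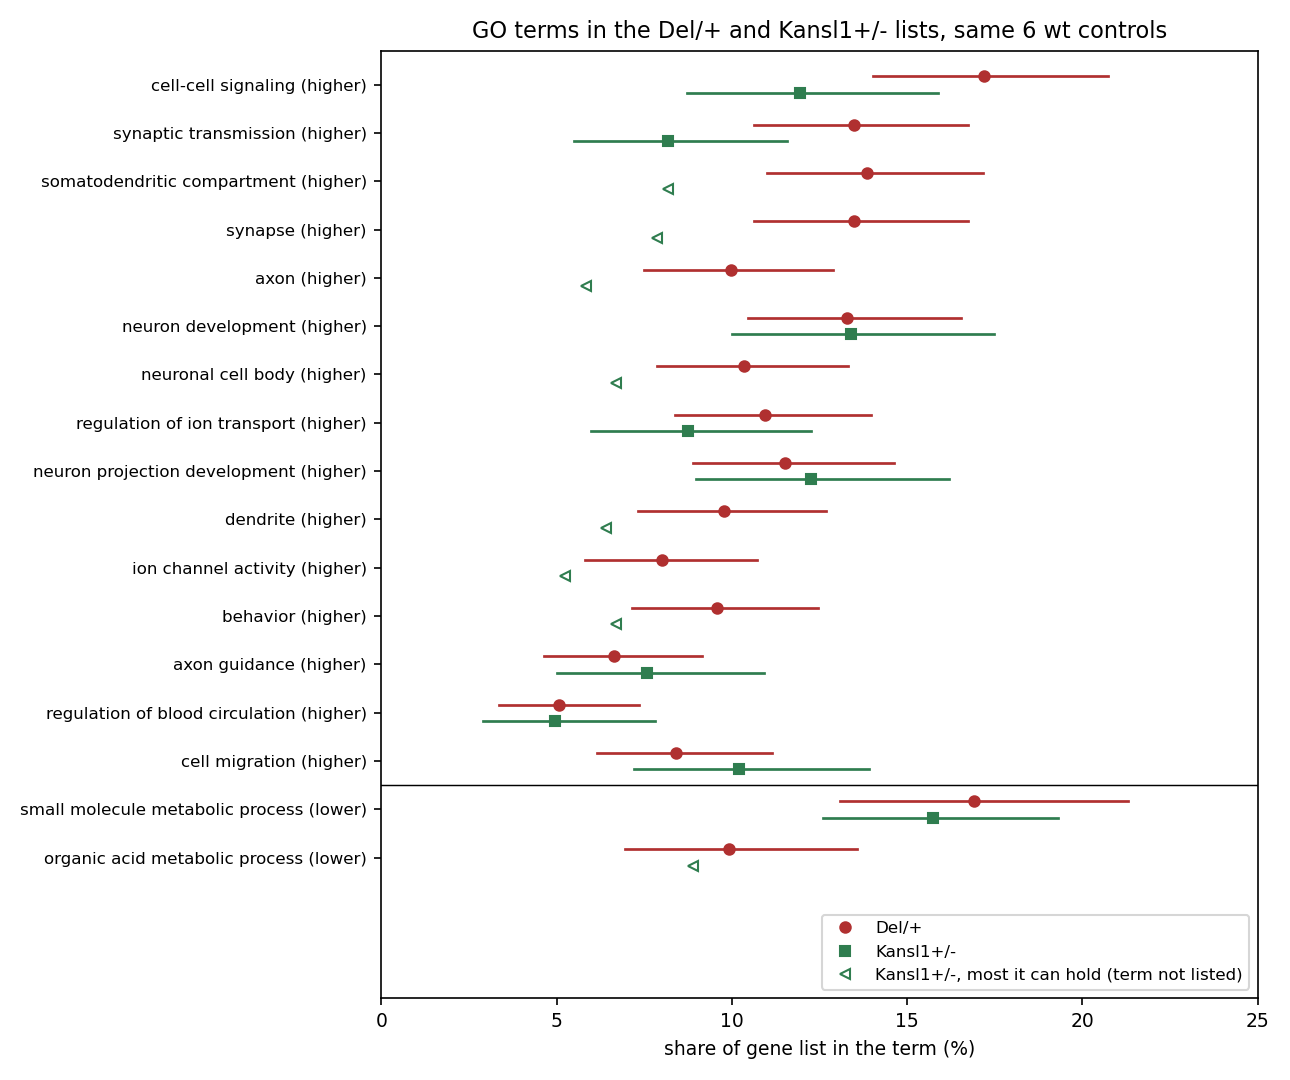
Percentage of each gene list in a GO term (x axis, exact 95% intervals) for 15 terms of genes higher and 2 terms of genes lower than wt, with Del/+ in red and Kansl1+/- in green, open triangles being the most an unlisted term can hold. Neuron development is level at 13.3% and 13.4%, and for the synapse the Kansl1+/- bound of 7.87% lies under the Del/+ interval of 10.6 to 16.7.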

How the data were processed

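The authors immunoprecipitated H3K4me3 from snap-frozen hippocampi, pooled libraries 4 per lane, mapped reads with BWA 0.6.2 (mm9, per the submitters' processing notes), called peaks with their own script, compared promoters with DESeq2 and tested GO terms by a hypergeometric test. For a listed term, each deposited table gives the counts of list genes and of background genes with that term, and the authors' expected number, which is a score and not a measurement. Their p-values and Bonferroni values served only to find the background size and the number of terms tested, and their fold and Benjamini columns were not used.

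List sizes are those the tables imply and need not equal the number of promoters called. For genes higher in Del/+, the implied size is above the number of up-regulated promoters that the paper gives. These list sizes returned the expected number of every listed term. The ranking p lay within 2% of the authors' p for 196 of 250 higher and 2 of 2 lower terms. The other 54 all had a ranking p of 2.04e-15 or less, and there the exact p was kept. Ranking p, shares, intervals and bounds were computed in Python 3.11.15 with numpy 2.4.6 and scipy 1.17.1, after the size search had been tested on simulated data, and figures were drawn with matplotlib 3.10.9. No test over mice was possible, since the tables hold counts of genes and no values per library. Terms named were the leading 10, and in each of 9 groups the 3 first in order and the 2 with the highest share. Most but not all terms of the nested pairs, the 3 last in order and those beside the size limit were also named. Terms outside this rule (cell body, neuron projection, neuron part, regulation of ion transmembrane transport, regulation of behavior, tissue and organ development, response to endogenous stimulus, synapse assembly, postsynaptic density, synaptic transmission, glutamatergic, glutamate receptor signaling, cognition, perikaryon, regulation of membrane potential, channel regulator activity, calmodulin binding and regulation of neurogenesis) were named after their values were seen. Groups, pairs and terms were chosen with earlier results of these data known. Alternatives were other size limits, a count with 1 gene fewer (EASE), a two-sided p, a stricter limit, the odds ratio and other orderings.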

Additional observations from a re-analysis of the deposited data

How the results depend on the processing

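The number of specific terms of the higher list, 161, fell to 98 with a limit of 500 genes. It was 196 with 2000 genes, 133 with 1 gene fewer per term, 142 with a two-sided p, 155 with equal counts taken once and 123 with a limit 10 times stricter. The 2 terms of the lower list became 0 with 1 gene fewer, with a two-sided p and with the stricter limit. Both stood at the smallest count listed, and their ranking p, 8.83e-06 and 9.16e-06, lay near the limit. Of the leading 10 terms, 10 stayed when ordered by the p of 1 gene fewer, and 0 stayed when ordered by fold or by the lower bound of the share, which put small terms first. As an odds ratio, 77 of 80 folds stayed inside the interval of the fold. The other 3 were axon initial segment (38.9), cell-cell signaling (5.16) and neurofilament (45.3). Of the 32 ratios within nested pairs, that of axon initial segment to the rest of the main axon was 2.58, and 3.94 as an odds ratio. Bounds rose by at most 1 gene with a two-sided p. Taking 1 gene from a count cannot move a share far and says nothing on stability. No paired analysis was possible because the tables hold no values per mouse, and for the same reason no library could be left out. Depth is unknown, and the bounds rest on the assumption that the tables print every term below the limit.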
